A study of Homo sapiens with 9 samples.

Results

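The 9 genes described here encode the core factors of nonsense-mediated mRNA decay: UPF1, UPF2, UPF3A, UPF3B, SMG1, SMG5, SMG6, SMG8 and SMG9. They were taken by symbol from a table of RNA-sequencing counts that listed 30017 genes, and all 9 were among the 12712 genes with enough counts to be tested. The counts came from MOLM13, a human acute myeloid leukemia cell line with monocytic features. All cells received a lentivirus that carries GFP and a short hairpin RNA (shRNA), and GFP-positive cells were sorted on day 4 after transduction. Every library of the 3 groups therefore came from transduced and sorted cells. One group received a control hairpin (sh-Control), and the others shDDX41 #1 or shDDX41 #2, hairpins against the RNA helicase gene DDX41. Each had 3 libraries, and the labels mark these with the letters A, B and D. A hairpin lowers the mRNA without removing the gene, and a single cell line carried all of them. Nothing in the labels says that the 3 libraries of a group came from separate transductions, so p-values measure the spread between these libraries, which may be technical.

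Nonsense-mediated decay removes mRNAs on which a ribosome stops too early. UPF1 is an RNA helicase that is recruited when translation stops, and UPF2 links it to UPF3B on exon junction complexes left behind by splicing. UPF3A is the paralog of UPF3B and competes with it for UPF2. The kinase SMG1, held in check by SMG8 and SMG9, phosphorylates UPF1, and phosphorylated UPF1 binds SMG5 and SMG6, which pass the mRNA to the general decay machinery or cut it. Several of these factors are known to be decay targets themselves, UPF1, UPF2, UPF3B, SMG1, SMG5 and SMG6 among the 9, so their mRNAs can rise when the pathway slows. SMG5 and SMG6 are the members that act last, on the target mRNA.

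The upstream sequences of SMG5, SMG6 and SMG9 are given because these were the members called against sh-Control. Each is the 250 bases before the transcription start in RefSeq, on the coding strand and in build GRCh38.p14, and 8 of the 9 members matched an entry. The windows are chr1:156282826-156283075 for SMG5, chr17:2303786-2304035 for SMG6 and chr19:43754963-43755212 for SMG9, all on the minus strand. Capitals mark a CCAAT box (CCAAT or its complement) or a GC box (GGGCGG or its complement).
SMG5: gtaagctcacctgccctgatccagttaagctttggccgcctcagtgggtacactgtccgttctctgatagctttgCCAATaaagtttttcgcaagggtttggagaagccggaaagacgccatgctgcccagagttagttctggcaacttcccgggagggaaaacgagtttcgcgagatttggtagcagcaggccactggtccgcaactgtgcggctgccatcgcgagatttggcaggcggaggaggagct
SMG6: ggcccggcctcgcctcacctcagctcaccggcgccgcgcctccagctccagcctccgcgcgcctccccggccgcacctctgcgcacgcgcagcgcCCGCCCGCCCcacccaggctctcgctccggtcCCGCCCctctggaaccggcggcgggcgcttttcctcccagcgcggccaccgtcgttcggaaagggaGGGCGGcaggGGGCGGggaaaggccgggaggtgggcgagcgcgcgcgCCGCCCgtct
SMG9: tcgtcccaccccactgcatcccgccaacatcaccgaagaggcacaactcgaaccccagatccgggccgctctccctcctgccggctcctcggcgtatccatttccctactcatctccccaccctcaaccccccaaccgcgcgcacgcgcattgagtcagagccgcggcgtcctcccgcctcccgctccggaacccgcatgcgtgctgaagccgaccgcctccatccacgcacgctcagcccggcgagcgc
The window of SMG5 held 1 CCAAT match and no GC box, that of SMG6 held no CCAAT and 6 GC box matches, some of them overlapping, and that of SMG9 held neither. Over 35116 RefSeq windows of the same length, 32% held CCAAT and 42.6% held GGGCGG on either strand. Among the 8 members matched, 4 held CCAAT and 6 held GGGCGG. The letters searched besides were CCGGAAG, found in UPF3A and in 8.52% of all windows, and TATAAA, TGACGTCA and TTTGGCGC, found in no member and in 10.7%, 1.65% and 0.55% of all windows. The GC content was 55.6% for SMG5, 79.6% for SMG6 and 68.8% for SMG9, against a median of 58% over all windows. These are matches of letters, and binding of a factor was not measured.

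The libraries held from 16385238 to 20510032 counts, of which the 9 members together took 0.0807% to 0.0944%. Member counts ran from 472 for SMG6 to 4630 for UPF1 in a library. Levels are given as CPM, counts scaled to a common library total, with TMM factors (trimmed mean of M-values). DDX41 had CPM values of 117, 115 and 113 in the A, B and D libraries of sh-Control, of 12.2, 12.9 and 9.95 with shDDX41 #1 and of 38.9, 39.9 and 42.5 with shDDX41 #2, so it went with the label in all 9 libraries. Of 10 myeloid markers, 9 reached 5 CPM and CD14 was near 0, and of 9 markers of other cell types 1 (KRT18) did. Replicate D of shDDX41 #1 stood apart from its group. Its chi-square per degree of freedom was 17.6 and 19.2 against the other replicates, which differed from each other by 2.91. The sh-Control libraries also differed from one another, by 7.998 (A and B), 10.14 (A and D) and 8.353 (B and D). Within shDDX41 #2 the values were 2.721, 2.447 and 3.251. The control group of both comparisons was thus less uniform than shDDX41 #2. The calls of the 9 members were also computed without replicate D of shDDX41 #1, and the values are given where one changed.

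The members called against sh-Control did not share a direction with either hairpin. In the edgeR quasi-likelihood test, with p-values adjusted by Benjamini-Hochberg over all 12712 genes and a call at an adjusted p under 0.05, 2 of the 9 members were called with shDDX41 #1. SMG9 was higher and SMG5 was lower. Of all genes tested, 47.8% were called in this comparison, 23.7% higher and 24.1% lower. With shDDX41 #2 the called members were also 2, SMG6 higher and SMG5 lower, against 25% of all genes, 11.6% higher and 13.4% lower. Between the hairpins 4 members were called, UPF2, SMG8 and SMG9 higher and SMG6 lower with shDDX41 #1, against 48.8% of all genes, 24.6% higher and 24.2% lower. Both hairpins were compared with the same 3 sh-Control libraries.

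Member changes were smaller at the median than those over all genes tested, which were not matched to the members for level. The median absolute log2 fold change of the 9 members was 0.10 with shDDX41 #1, against 0.29 over all genes tested. With shDDX41 #2 it was 0.10 against 0.18, and between the hairpins 0.12 against 0.29. No member changed by more than 0.33 on the log2 scale in any of the 3 comparisons. In each comparison, 4 of 9 members had CPM ranges that did not overlap between the groups, where this held for 53.1% of all genes with shDDX41 #1, for 43.8% with shDDX41 #2 and for 57.7% between the hairpins. For single values an exact permutation test of 3 against 3 libraries cannot go below 0.1, so every call here rests on the model fitted across genes.

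**Figure D1:**
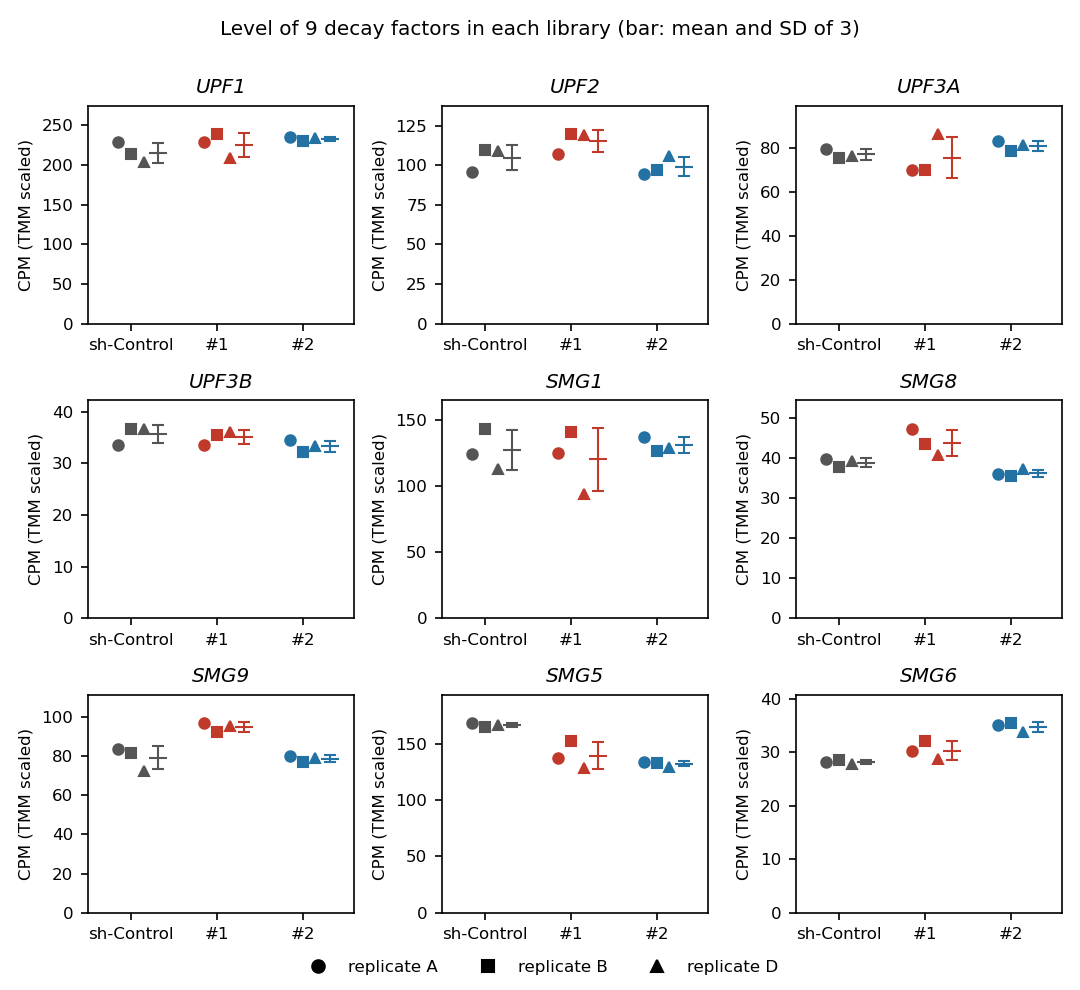
CPM (vertical axis, from 0) of each of the 9 decay factors in the 3 groups (horizontal axis), with 1 point per library, its shape giving the replicate letter, and the mean and SD of 3 libraries beside the points. SMG5 lies at 166 to 168 CPM in sh-Control and at 129 to 153 CPM in the 6 knockdown libraries, and the points of UPF3B lie between 32.2 and 36.7 CPM in all 9.

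SMG5 was the only member called with both hairpins. SMG5 helps to draw a phosphatase and the decay enzymes to phosphorylated UPF1. Its CPM values were 168, 166 and 167 in libraries A, B and D of sh-Control, 137, 153 and 129 with shDDX41 #1, and 134, 134 and 129.8 with shDDX41 #2. Each knockdown library was below each control library, and the control libraries were nearly equal. The mean went from 167 ± 1.497 CPM (SD, n = 3) to 139.7 ± 12.2 CPM with shDDX41 #1, a log2 fold change of −0.26 (95% interval −0.40 to −0.11, SE 0.0674, adjusted p 0.0055 in edgeR). With shDDX41 #2 the mean was 132 ± 2.36 CPM and the log2 fold change −0.33 (−0.48 to −0.19, SE 0.0674, adjusted p 0.00236). The fall was thus 16.4% and 20.7% of the control mean. Between the hairpins the difference was 0.08 (−0.07 to 0.22, adjusted p 0.374), with overlapping libraries, although DDX41 itself was at 11.7 ± 1.56 CPM with shDDX41 #1 and at 40.4 ± 1.85 CPM with shDDX41 #2. The size of the change stood at percentile 45.8 of all genes tested with shDDX41 #1 and at percentile 73.7 with shDDX41 #2. Both calls held under each of 19 other fits, where the log2 fold change lay between −0.32 and −0.18 for shDDX41 #1 and between −0.35 and −0.30 for shDDX41 #2.

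SMG6, the endonuclease that cuts the target mRNA near the stop codon, was called in the opposite direction. It was at 28.2, 28.5 and 27.9 CPM in sh-Control, at 30.1, 32.1 and 28.6 CPM with shDDX41 #1 and at 35.1, 35.4 and 33.7 CPM with shDDX41 #2. The 3 groups did not overlap, and shDDX41 #1 lay between the others. With shDDX41 #2 the log2 fold change was 0.30 (0.15 to 0.46, SE 0.073, adjusted p 0.00741 in edgeR), a rise of 23.3% from 28.2 ± 0.321 to 34.7 ± 0.905 CPM. With shDDX41 #1 it was 0.10 (−0.05 to 0.26, adjusted p 0.258) and was not called. The difference between the hairpins was −0.20 (−0.35 to −0.04, adjusted p 0.0359), but 10 of 19 other fits lost this call. Among them were the fits without replicate A (adjusted p 0.0816) or D (−0.16, adjusted p 0.102) of shDDX41 #1 and without replicate A, B or D of shDDX41 #2 (adjusted p 0.0987, 0.108 and 0.0532).

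The SMG6 count is uncertain because of a neighbour. The gene lies at chr17:2059839-2303771 on the minus strand (GRCh38, GENCODE v29), and 25.4% of its exon bases are shared with genes on the opposite strand. HIC1, which encodes a transcriptional repressor, covers 22.9% of all SMG6 exon bases and 29.9% of its principal transcript, and SRR covers 0.644% and 1.14%. Which strand setting was used for counting is not given in the sources used here, so reads of SMG6 and HIC1 may not have been told apart. HIC1 rose with both hairpins, from a mean of 9.90 CPM to 14.8 CPM (log2 fold change 0.58, adjusted p 0.0035) and to 16.3 CPM (0.71, adjusted p 0.00197). SRR went from 6.54 CPM to 3.44 CPM with shDDX41 #1 (−0.93, adjusted p 6.91e-04) and was at 6.70 CPM with shDDX41 #2 (0.05, adjusted p 0.871). The part of these neighbours in the SMG6 value was not tested.

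Of the 3 subunits of the SMG1 kinase complex, 1 was called against sh-Control, with shDDX41 #1. SMG9, which with SMG8 binds SMG1 and restrains it, was at 83.5, 81.5 and 72.5 CPM in sh-Control, at 96.8, 92.2 and 95.5 CPM with shDDX41 #1 and at 80.02, 77.01 and 79.3 CPM with shDDX41 #2. All shDDX41 #1 libraries were above the other 6, which overlapped with one another. The log2 fold change with shDDX41 #1 was 0.26 (0.12 to 0.40, SE 0.0673, adjusted p 0.00495 in edgeR), from 79.1 ± 5.88 to 94.8 ± 2.38 CPM. With shDDX41 #2 it was −0.01 (−0.15 to 0.14, adjusted p 0.955). The hairpins differed by 0.27 (0.12 to 0.41, SE 0.0672, adjusted p 0.0041), and this call held in all 19 other fits.

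SMG8 took values of 39.8, 37.8 and 39.4 CPM in sh-Control, 47.4, 43.5 and 40.95 CPM with shDDX41 #1 and 36.04, 35.6 and 37.3 CPM with shDDX41 #2. The groups did not overlap, with shDDX41 #1 highest and shDDX41 #2 lowest. Against sh-Control neither value was called, at 0.17 (0.02 to 0.33, adjusted p 0.0614 in edgeR) and −0.10 (−0.26 to 0.05, adjusted p 0.334). Between the hairpins the difference was 0.28 (0.12 to 0.43, SE 0.0732, adjusted p 0.00585), called also in all 19 other fits. Without replicate D of shDDX41 #1, SMG8 was called against sh-Control too (0.23, adjusted p 0.0134). A gene on the same strand, AC099850.2, shares 11.2% of the SMG8 exon bases.

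SMG1, the kinase itself, was at 125, 143.5 and 113 CPM in sh-Control, at 125, 141 and 94.04 CPM with shDDX41 #1 and at 138, 127 and 129 CPM with shDDX41 #2. Its spread was the widest of the members in sh-Control and with shDDX41 #1, with coefficients of variation of 12% and 20%, and it was 4.39% with shDDX41 #2, below the 6.15% of UPF2. The log2 fold changes were −0.08 (−0.33 to 0.17, adjusted p 0.599) and 0.04 (−0.21 to 0.29, adjusted p 0.822), and between the hairpins −0.12 (−0.38 to 0.13, adjusted p 0.404). The sign turned with shDDX41 #1 without replicate B of sh-Control (0.02) or replicate D of shDDX41 #1 (0.08), with shDDX41 #2 without replicate D of sh-Control (−0.04), and between the hairpins without replicate D of shDDX41 #1 (0.03). SMG1 has near-identical pseudogene copies on the same chromosome, and its counts are uncertain for that reason. The copy that the table lists, SMG1P1, took 19.1 ± 2.96 counts per 100 SMG1 counts in sh-Control, 20.6 ± 3.24 with shDDX41 #1 and 17.4 ± 2.18 with shDDX41 #2 (SD, n = 3), values that overlap.

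The low SMG1 values fell in libraries where long genes in general were low. For 9261 genes with a length and a mean of at least 5 CPM, the deviation of each library from its group mean was computed on the log2 scale. The median over the longest 10% of genes minus that over the shortest 10% (927 each) was −0.27 in replicate D of shDDX41 #1 and −0.12 in replicate D of sh-Control, and SMG1 deviated by −0.33 and −0.16 in the same libraries. In replicate B of these groups the same difference was 0.14 and 0.12, and SMG1 deviated by 0.25 and 0.18. In replicate A it was 0.13 and 0.01, and SMG1 deviated by 0.08 and −0.02. In the 3 shDDX41 #2 libraries it lay between −0.01 and 0.02. SMG5 deviated by −0.11 in replicate D, 0.13 in replicate B and −0.02 in replicate A of shDDX41 #1, and by at most 0.01 in sh-Control. Between groups the longest genes moved by −0.10 relative to the shortest with shDDX41 #1 and by 0.09 with shDDX41 #2. The part of transcript length in the member values was not tested.

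**Figure D2:**
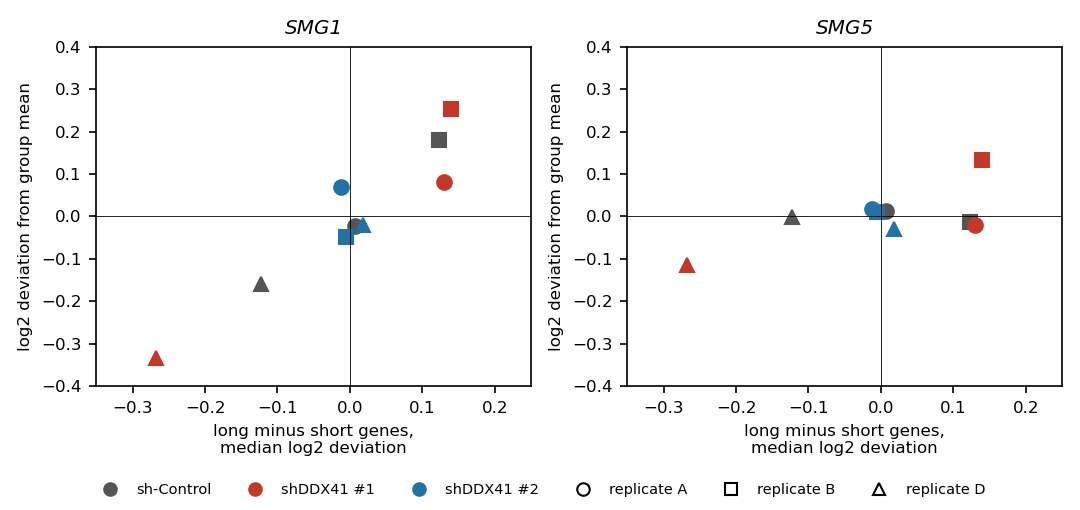
Each point is a library, with the longest minus the shortest 10% of genes on the horizontal axis (median log2 deviation from the group mean) and the log2 deviation of SMG1 (left) or SMG5 (right) on the vertical axis. Color gives the group and shape the replicate letter, and the D libraries of shDDX41 #1 (−0.27, −0.33) and sh-Control (−0.12, −0.16) lie lowest on the left.

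The UPF genes were called in no comparison with sh-Control. UPF1, the helicase at the center of the pathway, was at 229, 213 and 203 CPM in sh-Control, at 229, 239 and 209 CPM with shDDX41 #1 and at 235, 229.6 and 234 CPM with shDDX41 #2. Only the shDDX41 #2 libraries all lay above the controls. The log2 fold changes were 0.07 (−0.07 to 0.21, adjusted p 0.421 in edgeR) and 0.11 (−0.03 to 0.26, adjusted p 0.236), and −0.04 (−0.19 to 0.10, adjusted p 0.607) between the hairpins. All 3 intervals include 0 and none reaches beyond 0.26.

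UPF2, the bridge between UPF1 and the UPF3 proteins, was at 95.8, 109 and 109 CPM in sh-Control, at 107, 119.5 and 119 CPM with shDDX41 #1 and at 94.2, 97.1 and 106 CPM with shDDX41 #2. The controls overlapped with both knockdown groups, and the knockdown groups did not overlap with each other. Log2 fold changes were 0.14 (−0.02 to 0.30, adjusted p 0.143 in edgeR) with shDDX41 #1 and −0.08 (−0.24 to 0.08, adjusted p 0.466) with shDDX41 #2. The hairpins differed by 0.22 (0.06 to 0.38, SE 0.0752, adjusted p 0.0256), and the call was lost without replicate B of shDDX41 #1 (0.19, adjusted p 0.0837) and without replicate A (0.18, adjusted p 0.114) or B (0.20, adjusted p 0.087) of shDDX41 #2.

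UPF3B, the paralog that binds the exon junction complex, was at 33.6, 36.7 and 36.7 CPM in sh-Control, at 33.6, 35.6 and 36.2 CPM with shDDX41 #1 and at 34.4, 32.2 and 33.3 CPM with shDDX41 #2. All 3 groups overlapped. Its log2 fold changes were −0.02 (−0.18 to 0.13, adjusted p 0.815) and −0.10 (−0.26 to 0.05, adjusted p 0.339), with 0.08 (−0.08 to 0.23, adjusted p 0.403) between the hairpins.

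UPF3A, the weaker of the UPF3 paralogs in decay, was at 79.6, 75.2 and 76.1 CPM in sh-Control, at 70.04, 70.1 and 86.2 CPM with shDDX41 #1 and at 82.9, 78.3 and 81.4 CPM with shDDX41 #2. Replicate D of shDDX41 #1 was the highest of the 9 libraries and the other replicates of that group the lowest. The log2 fold changes were −0.03 (−0.20 to 0.14, adjusted p 0.787) and 0.07 (−0.10 to 0.24, adjusted p 0.549), and −0.10 (−0.27 to 0.07, adjusted p 0.314) between the hairpins. Without replicate D of shDDX41 #1 the difference between the hairpins was called (−0.20, adjusted p 0.0128).

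The balance of the UPF3 paralogs was read as the share of UPF3A in the sum of UPF3A and UPF3B counts. The share was 70.3%, 67.2% and 67.5% in sh-Control, 67.6%, 66.4% and 70.4% with shDDX41 #1 and 70.7%, 70.9% and 70.98% with shDDX41 #2. The shDDX41 #2 libraries were above the rest, by a narrow gap to replicate D of shDDX41 #1 and replicate A of sh-Control. The UPF3 pair took 1720 to 2228 counts in a library, and the counting error of the share was not computed. Means were 68.3 ± 1.72%, 68.1 ± 2.10% and 70.8 ± 0.157% (SD, n = 3), and the exact two-sided permutation p was 1 for shDDX41 #1 and 0.1 for shDDX41 #2 against sh-Control, the latter the smallest that the design allows.

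**Figure D3:**
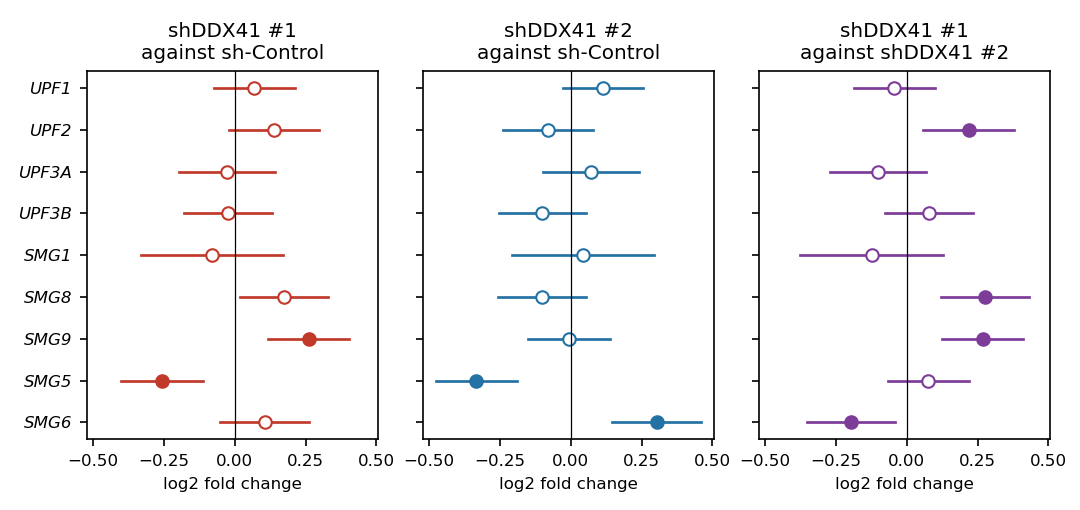
Log2 fold change (horizontal axis) with its 95% interval for each of the 9 decay factors (vertical axis) in the 3 comparisons, filled where the adjusted p was under 0.05. SMG5 is filled on the left of 0 in both comparisons with sh-Control (−0.26 and −0.33), SMG9 on the right only with shDDX41 #1 (0.26) and SMG6 only with shDDX41 #2 (0.30).

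The 6 members listed above as decay targets themselves (UPF1, UPF2, UPF3B, SMG1, SMG5 and SMG6) did not share a direction. With shDDX41 #1, 0 of 6 rose and 1 (SMG5) fell, with a median log2 fold change of 0.02, against 0.01 over all genes. With shDDX41 #2, 1 (SMG6) rose and 1 (SMG5) fell, with a median of −0.02 against −0.01. Transcripts that GENCODE v29 classes as nonsense-mediated decay are annotated for 3 of the 9 members (SMG1, SMG8 and SMG9), and for 44.3% of 10832 tested protein-coding genes. The 3′ untranslated region of the principal transcript, a long one being a known mark of decay targets, had a median of 1363 bases over the members, against 1060 over those genes. It exceeded 1000 bases in 6 of 9 members and in 51.6% of the genes. It was 1363 bases in SMG5, 1649 in SMG6, 3604 in SMG9 and 4716 in SMG1. The table gives counts per gene, so isoforms that end in decay and those that do not could not be separated.

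Levels were compared between genes only per length, as CPM per kilobase of the principal GENCODE transcript. In sh-Control the order was UPF1 at 40.2 ± 2.38, SMG5 at 36.6 ± 0.329, UPF3A at 32.2 ± 0.982, UPF2 at 18.8 ± 1.39, UPF3B at 15 ± 0.743, SMG9 at 14.4 ± 1.07, SMG8 at 11.2 ± 0.300, SMG1 at 7.89 ± 0.946 and SMG6 at 4.73 ± 0.0538 (mean ± SD, n = 3). The neighbours UPF3B and SMG9 did not differ beyond their spread, while SMG5 stood above UPF3A. With shDDX41 #2, SMG5 was at 29.1 ± 0.519, below UPF3A at 33.9 ± 0.990, and with shDDX41 #1 they overlapped, at 30.6 ± 2.69 and 31.6 ± 3.89. The order depends on the length used. Per kilobase of all exon bases of a gene, SMG5 led in sh-Control at 31.5 ± 0.283, followed by UPF1 at 25.02 ± 1.48 and UPF2 at 17.7 ± 1.31, and UPF3A was at 13.3 ± 0.406. On that scale SMG5 was at 24.98 ± 0.446 with shDDX41 #2, below UPF1 at 27.1 ± 0.317. SMG6, the endonuclease, was the lowest member on both scales.

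The F statistic over the 3 groups ranked the members as SMG5 (13.7), SMG9 (10.5), SMG6 (8.94), SMG8 (7.33) and UPF2 (4.35), with adjusted p of 0.00136, 0.00376, 0.00659, 0.0126 and 0.0522 in edgeR. The other members had F of at most 1.45. The genes whose log2 CPM, centered on the sh-Control mean, lay nearest to that of SMG5 over the 9 libraries were LRRC59, LZTR1 and AKAP8. Their root mean square differences from SMG5 were 0.0513, 0.0583 and 0.0584 on the log2 scale. LRRC59, a ribosome-binding protein of the endoplasmic reticulum, went from a mean of 350.1 CPM to 282 CPM with each hairpin.

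The rest of the pathway is described by the numbers of called genes, beside the shares over all genes given above. Of 6 other partners of UPF1, 1 rose and 3 fell with shDDX41 #1, and 0 rose and 1 fell with shDDX41 #2 (3 genes called in place of 1 without replicate D of shDDX41 #1, a library that enters the fit through the filter and the shared spread). PNRC2, which links UPF1 to decapping, fell by 0.36 (adjusted p 6.7e-04) and PPP2CA, the catalytic subunit of the phosphatase that acts on UPF1, by 0.27 (adjusted p 0.00135) on the log2 scale with shDDX41 #1. Without replicate D of shDDX41 #1, 1 rose and 2 fell with that hairpin. DHX34, a helicase that binds SMG1, fell by 0.39 (adjusted p 0.00625) with shDDX41 #2. Between the hairpins 2 were higher and 2 lower with shDDX41 #1, with NBAS at −0.51 (adjusted p 3.44e-04) and PPP2R1A at 0.31 (adjusted p 7.89e-04).

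The exon junction complex marks splice sites for the UPF proteins. Of 8 genes tested of this list, 4 fell and 0 rose with shDDX41 #1, 0 rose and 1 fell with shDDX41 #2, and 1 was higher and 3 lower with shDDX41 #1 than with shDDX41 #2. MAGOH and its paralog MAGOHB fell by 0.83 (adjusted p 8.64e-06) and 0.53 (adjusted p 1.96e-04) on the log2 scale with shDDX41 #1. They encode near-identical proteins, so their counts may share reads. MAGOH also differed between the hairpins (−0.76, adjusted p 1.81e-05), as did ACIN1 (0.31, adjusted p 0.00111). EIF4A3, the helicase that anchors the complex, was called with shDDX41 #2 at −0.20 (adjusted p 0.0465), a call lost with upper quartile scaling. That scaling also gave 2 higher and 3 lower with shDDX41 #1, and leaving out replicate D of shDDX41 #1 gave 1 higher and 4 lower.

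Of 6 tested genes for translation termination and the mRNA cap, 2 rose and 2 fell with shDDX41 #1, 1 rose and 1 fell with shDDX41 #2, and 1 was higher and 2 lower between the hairpins. PABPC1, the poly(A)-binding protein that favors normal termination, rose by 0.44 (adjusted p 1.03e-04) and 0.40 (adjusted p 7.26e-04) with the hairpins. NCBP1, the large subunit of the nuclear cap-binding complex, fell by 0.45 (adjusted p 5.39e-05) with shDDX41 #1 and differed between the hairpins by −0.37 (adjusted p 2.83e-04), and its partner NCBP2 differed by 0.26 (adjusted p 0.00352). ABCE1, which splits ribosomes after termination, fell by 0.20 (adjusted p 0.0221) with shDDX41 #2. With upper quartile scaling 1 rose and 0 fell with this hairpin.

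Of 11 decapping and decay enzymes, 4 rose and 4 fell with shDDX41 #1, 1 rose and 1 fell with shDDX41 #2, and 3 were higher and 5 lower between the hairpins. DCP1B, a cofactor of decapping, rose by 1.201 (adjusted p 1.65e-07) and DCP2, the decapping enzyme, fell by 0.62 (adjusted p 8.66e-06) on the log2 scale with shDDX41 #1. They differed between the hairpins by 0.99 (adjusted p 9.83e-07) and −0.67 (adjusted p 3.74e-06). With shDDX41 #2 the 5′-to-3′ exonuclease gene XRN1 rose by 0.39 (adjusted p 0.0135) and DCP1A fell by 0.31 (adjusted p 0.0397), where upper quartile scaling gave 2 higher and 0 lower. Without replicate D of shDDX41 #1, 4 rose and 3 fell with shDDX41 #1, and 4 were higher and 6 lower between the hairpins.

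SMG1 belongs to the kinases that need a dedicated chaperone system, the TTT and R2TP complexes. Of 7 such assembly genes, 6 fell and 0 rose with shDDX41 #1, 2 fell and 0 rose with shDDX41 #2, and 3 were lower and 0 higher between the hairpins. Over all genes tested, 24.1% fell with shDDX41 #1, 13.4% fell with shDDX41 #2 and 24.2% were lower between the hairpins. TELO2 fell by 0.73 (adjusted p 1.17e-06) and 0.23 (adjusted p 0.0232) on the log2 scale with shDDX41 #1 and shDDX41 #2, and differed between them by −0.49 (adjusted p 5.06e-05). TTI1 fell by 0.48 (adjusted p 0.00151) with shDDX41 #1, PIH1D1 by 0.29 (adjusted p 0.00598) with shDDX41 #2, and TTI2 differed between the hairpins by −0.27 (adjusted p 0.00844). The median log2 fold change of the list was −0.24 with shDDX41 #1 and −0.16 with shDDX41 #2, against 0.01 and −0.01 over all genes. With upper quartile scaling 3 fell with shDDX41 #1 and 1 with shDDX41 #2. Without replicate D of shDDX41 #1, 4 fell with shDDX41 #2 and 4 were lower between the hairpins. In that fit, calls over all genes numbered 4248 with shDDX41 #2 and 6328 between the hairpins, against 3174 and 6204 in the main fit.

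**Figure D4:**
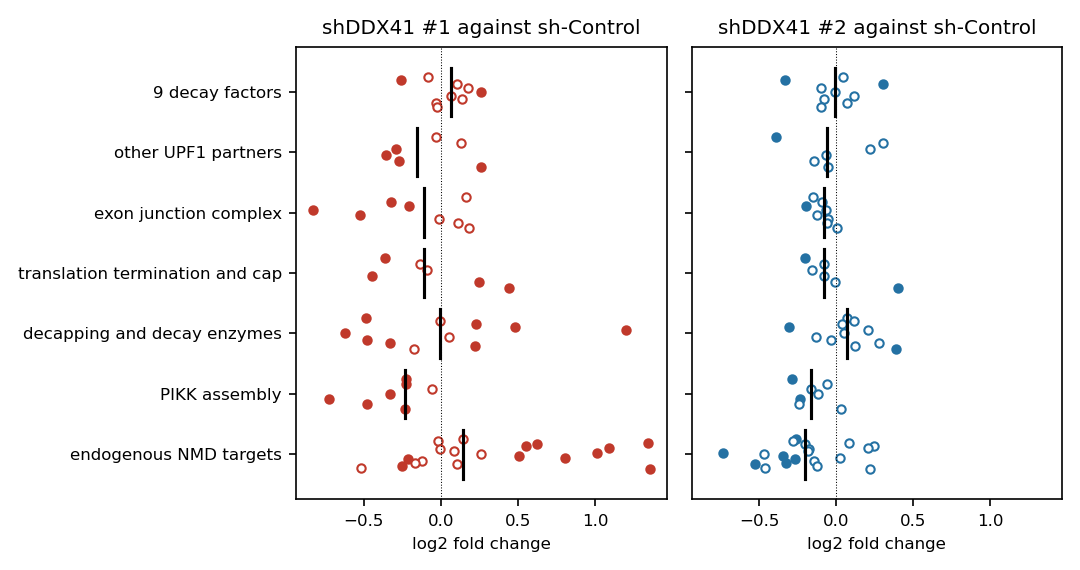
Log2 fold change (horizontal axis) of every tested gene of each list (vertical axis) with shDDX41 #1 (left) and shDDX41 #2 (right), filled where the adjusted p was under 0.05, with a black bar at the median of the list. The 9 decay factors span −0.26 to 0.26 on the left and −0.33 to 0.30 on the right, and the known decay targets span −0.52 to 1.36 and −0.73 to 0.25.

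Known endogenous targets of the pathway were counted per gene, so their isoforms that end in decay could not be separated from the others. Of 19 such genes tested, 8 rose and 2 fell with shDDX41 #1 (median log2 fold change 0.14), and 0 rose and 6 fell with shDDX41 #2 (median −0.20). With shDDX41 #1, 8 rose and 3 fell when replicate D of that group was left out. The shDDX41 #2 count was 12, of which 3 rose and 9 fell, without replicate D of shDDX41 #1. It was 7, with 2 higher and 5 lower, without all 3 D libraries. Calls over all genes with shDDX41 #2 numbered 4248 and 3248 in these fits, against 3174 in the main fit. Between the hairpins 13 of the 19 were higher with shDDX41 #1 and 0 lower. Over all genes tested, 23.7% rose and 24.1% fell with shDDX41 #1, and 11.6% rose and 13.4% fell with shDDX41 #2. Between the hairpins 24.6% of all genes were higher with shDDX41 #1 and 24.2% lower. The list holds genes that many other signals change, and the rate of decay was not measured.

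The genes called higher with shDDX41 #1 were mostly the non-coding hosts of small nucleolar RNAs, a division that was made after the values were seen. Of 7 hosts, 6 rose and 0 fell with shDDX41 #1 (median 1.02), and of 12 protein-coding targets, 2 rose and 2 fell (median −0.01). ZFAS1 and GAS5, hosts whose spliced transcripts are classic decay targets, rose by 1.36 (adjusted p 2.86e-08) and 1.09 (adjusted p 2.35e-07). The protein-coding genes that rose were GADD45A (0.62, adjusted p 0.00144) and GADD45B (0.55, adjusted p 1.57e-04), both also stress-induced genes. Those that fell were the splicing factor genes SRSF2 (−0.21, adjusted p 0.00998 in edgeR) and TRA2B (−0.25, adjusted p 0.00302). With shDDX41 #2, 0 of 7 hosts rose and 2 fell (median 0.02), and 0 of 12 protein-coding targets rose and 4 fell (median −0.23). Among these 4 were the splicing factor genes SRSF2 (−0.27, adjusted p 0.00504 in edgeR) and SRSF6 (−0.33, adjusted p 0.00332).

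SNHG1 went in opposite directions, up by 1.02 (adjusted p 1.74e-05) with shDDX41 #1 and down by 0.73 (adjusted p 0.00108) with shDDX41 #2. The hairpins differed for it by 1.75 (adjusted p 1.03e-07) and for ZFAS1 by 1.13 (adjusted p 1.51e-07). TBL2, a protein-coding target, fell by 0.53 (adjusted p 8.05e-05) with shDDX41 #2. Beside these values, the decay factors that differed between the hairpins (UPF2, SMG6, SMG8 and SMG9) did so by 0.28 at most on the log2 scale.

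**Figure D5:**
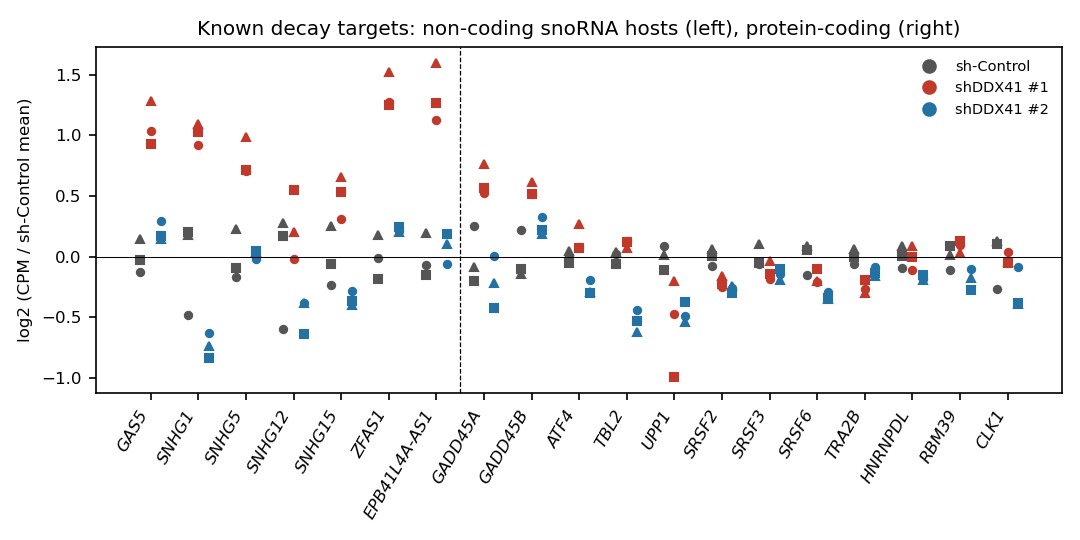
Log2 of CPM relative to the sh-Control mean (vertical axis) of each of 19 known decay targets (horizontal axis), 1 point per library, with color for the group and shape for the replicate letter (circle A, square B, triangle D). Of the 7 non-coding hosts on the left, 6 were called higher with shDDX41 #1, and of the 12 protein-coding genes on the right, 2 were.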

How the data were processed

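Poly(A) RNA of sorted MOLM13 cells was sequenced. The labels name a strand-specific kit and the study's methods another of the same family, and the strand setting of counting is not given in the sources used here. The submitters' processing notes list FastQC 0.11.7, HISAT2 2.0.5 and featureCounts 1.5.2, and the builds hg38 and mm10, with no role or order. The methods also name iGeak for the analysis of mapped reads. The deposited table holds raw counts per gene, whole numbers that the authors did not normalize, with 1 column per library and 0 columns unmapped. How reads shared by several genes were counted is not stated.

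Groups were taken from the labels. In R 4.3.3, edgeR 4.0.16 was fitted to all 9 libraries with 1 coefficient per group, after filterByExpr (minimum count 10), which kept 12712 of 30017 genes, and TMM scaling (factors 0.963 to 1.02). Two-sided quasi-likelihood tests were adjusted by Benjamini-Hochberg over all genes tested. The libraries held 16385238 to 20510032 counts, and the common biological coefficient of variation was 0.0768. Single values were compared with exact permutation tests over libraries.

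The members, lists and tests were chosen with earlier results of these data known. The genes named were DDX41 and all members. Of each other list, the 2 called genes with the smallest adjusted p in each contrast were named, and for the member with the largest F the 3 genes nearest to it. SNHG1 with shDDX41 #1, GADD45A, GADD45B, SRSF2, SRSF6, TRA2B and the neighbours HIC1 and SRR were named after their values were seen. The result of 1 further gene is not reported here. A further exon junction complex gene of the list, PYM1, had no row by that symbol, and GSPT2 was too low to be tested. Gene positions and lengths came from GENCODE v29 by symbol, and upstream sequences from RefSeq. The scripts were tested on simulated counts in which 200 of 12712 genes were changed. For shDDX41 #1 against sh-Control, 84% of the 2-fold and 13% of the 1.2-fold changes were called. In the data 6078 genes were called, so these shares need not carry over. The alternatives were DESeq2 size factors, upper quartile factors, no factors, no filter, a minimum of 10 counts in each library, limma voom (3.58.1), the Wald test of DESeq2 1.42.0, fits to the 6 libraries of a comparison, a block for the replicate letter, leaving out every library in turn, an adjusted p under 0.01 and, added after seeing the data, all 3 D libraries left out. For the other lists, upper quartile factors and, added after seeing the data, the fits without replicate D of shDDX41 #1 and without all 3 D libraries were run.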

Additional observations from a re-analysis of the deposited data

Results flagged for a closer look

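The test between the hairpins in the same edgeR fit called 4 of the 9 decay factors. The difference, shDDX41 #1 minus shDDX41 #2 on the log2 scale, was 0.22 for UPF2 (adjusted p 0.0256), 0.28 for SMG8 (adjusted p 0.00585), 0.27 for SMG9 (adjusted p 0.0041) and −0.20 for SMG6 (adjusted p 0.0359). All 3 shDDX41 #1 libraries were above all 3 shDDX41 #2 libraries for UPF2, SMG8 and SMG9 and below them for SMG6. For all genes tested 48.8% were called in this comparison, so 4 of 9 members is near the share over all genes. The calls of SMG8 and SMG9 held in all 19 other fits, that of UPF2 in 16 and that of SMG6 in 9.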

How the results depend on the processing

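The calls of SMG9 and SMG5 with shDDX41 #1, of SMG5 and SMG6 with shDDX41 #2 and of SMG8 and SMG9 between the hairpins held in all 19 other fits. Over these fits, 469 member values kept their direction and side of the threshold, 13 lost a call, 7 gained one and 24 changed sign, all 24 of values that were not called. Members called with shDDX41 #1 were 2, and 4 with upper quartile factors, which added UPF2 and SMG8. The count was 3, with SMG8 added, at a minimum of 10 counts in each library, without replicate D of shDDX41 #1 and without all 3 D libraries. That scaling shifted the median over all genes to 0.09 on the log2 scale, from 0.01. Members called with shDDX41 #2 were 2 in every alternative. Between the hairpins the count was 4, and 2 at an adjusted p under 0.01, and it ran from 2 (without replicate A or B of shDDX41 #2) to 4 over the fits that left out 1 library. The main fit did not pair the libraries by replicate letter. Deviations from the group means correlated from −0.06 to 0.24 between libraries of the same letter and from −0.18 to 0.07 otherwise. Of the 9 libraries, 7 were closest to a library with their own letter. Same-letter correlations between sh-Control and shDDX41 #1 were 0.07, 0.16 and 0.24, and those with shDDX41 #2 lay between −0.06 and 0.02. The letters may thus carry an effect shared by sh-Control and shDDX41 #1. With the replicate block the member calls numbered 2, 2 and 4, as without it. Calls over all genes numbered 6351, 3570 and 6503 with the block and 6078, 3174 and 6204 without it. Signs of uncalled values turned with shDDX41 #1 under upper quartile factors for UPF3A (0.047) and UPF3B (0.053), which over the fits without 1 library ran from −0.125 to 0.026 and from −0.065 to 0.012, while SMG1 ran from −0.207 to 0.079. With shDDX41 #2, SMG1 ran from −0.035 to 0.144 and was at −0.023 without all 3 D libraries. SMG9 ran from −0.069 to 0.032, with 0.027 under upper quartile factors, 0.0011 with DESeq2 size factors, 0.0012 with no filter, 0.0012 in the DESeq2 Wald test and 8e-04 with only the 6 libraries. Between the hairpins, UPF1 ran from −0.091 to 0.0086 and was at 0.0093 without all 3 D libraries, and SMG1 ran from −0.26 to 0.027 and was at 0.013. Upper quartile factors gave 3 calls of kinase assembly genes with shDDX41 #1 and 1 with shDDX41 #2, 0 of the exon junction complex and 1 of termination and cap genes with shDDX41 #2. Without all 3 D libraries, 2 other UPF1 partners were called with shDDX41 #2, and without replicate D of shDDX41 #1 alone 12 of the 19 decay targets were, in place of 6. Calls over all genes with shDDX41 #2 numbered 3248 and 4248 in these fits, against 3174 in the main fit. The cause was not tested. A member that was not called may still have changed. With 3 libraries per group, the 95% intervals were as wide as −0.33 to 0.17 for SMG1 with shDDX41 #1. They rest on the spread between these libraries and on the scaling, so changes beyond them are not excluded.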
